A study of Mus musculus with 9 samples.

Results

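The mitochondrially encoded transcripts were examined in quadriceps of dystrophin-deficient mdx mice that had lost the mineralocorticoid receptor (MR, gene Nr3c2) in 1 cell type. Genes were taken by symbol, as every gene on the array named by a single-symbol transcript cluster whose symbol starts with "mt-". This rule found 2 genes of 30707, the lysine tRNA mt-Tk (cluster TC0M00000008) and the small ribosomal RNA mt-Rnr1 (cluster TC0M00000002). After the table had been seen, 5 protein genes were added that RefSeq places on the mitochondrial genome under symbols without the prefix, ND2, COX1, COX2, ND3 and ND6. The array holds 23 further mitochondrial clusters, 19 without a symbol and 4 that carry several symbols, so that 30 of 65672 clusters have M as the chromosome in their identifier. That field matched the RefSeq chromosome for 99.79% of named genes. Of the 37 genes that RefSeq (GRCm38.p6) places on this genome, 1 of 22 tRNAs, 1 of 2 rRNAs and 5 of 13 protein genes could therefore be read by name, and no transcript was named from a cluster with several symbols or none.

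Each of the 9 mice, all 8 weeks old and of a C57BL6/C57BL10 background, gave 1 Clariom D array. LysM-MRcko/mdx mice (LysM-Cre+/-, MR flox/flox, mdx, n = 3, 2 male and 1 female) carry Cre in the lysozyme locus, which is active in myeloid cells. MCK-MRcko/mdx mice (MCK-Cre+/-, MR flox/flox, mdx, n = 3, 1 male and 2 female) carry Cre under the promoter of muscle creatine kinase, which is active in myofibers. Cre-/mdx controls (Cre-/-, MR flox/flox, mdx, n = 3, 2 male and 1 female) carry the same floxed alleles and the same mdx mutation without Cre. All 3 groups were thus dystrophic, and no healthy muscle entered the comparisons.

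The mitochondrial genome encodes subunits of the respiratory chain and the rRNAs and tRNAs that translate them inside the organelle. Both strands are transcribed into long precursors in which tRNAs lie between the other genes, and cutting the tRNAs out releases the neighbouring RNAs. Myofibers are rich in mitochondria, and these RNAs are among the most abundant in skeletal muscle. RNA was cleaned on silica columns before labelling, a step known to retain little RNA as short as a tRNA. Whether the signal of the mt-Tk cluster came from mature tRNA or from longer precursors was not tested.

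Values are log2 signals, and a cluster was called changed where the groups differed at least 2-fold (1 on the log2 scale) with an unadjusted p under 0.05 in limma. Array medians lay between 4.70 and 4.78. The labelled tissue was checked against markers of myofibers, and all 10 were within 1 log2 unit of the top of the scale in every array. So near the top, they cannot show whether myofiber content was equal between the groups. The whole-muscle signal of Nr3c2 was 6.89 to 6.96 in LysM-MRcko/mdx, 6.74 to 6.87 in MCK-MRcko/mdx and 6.89 to 7.12 in Cre-/mdx mice, which is a weak check of a deletion limited to 1 cell type. Markers of macrophages were higher in both knockouts, 8 of 10 called in LysM-MRcko/mdx (beside 0.234% of all clusters called higher) and 5 of 10 in MCK-MRcko/mdx (beside 0.227%), with none lower relative to Cre-/mdx. In LysM-MRcko/mdx these were Cd68, Adgre1, Itgam, Csf1r, C1qa, C1qb, Ctss and Fcer1g, with Cd68 the highest at 2.02, and in MCK-MRcko/mdx Cd68, Adgre1, Itgam, Mrc1 and Ctss, with Mrc1 the highest at 1.43. Summed over the 10 markers, the log2 signals ran over 124 to 131 in LysM-MRcko/mdx, 121.1 to 123.7 in MCK-MRcko/mdx and 109 to 116 in Cre-/mdx mice, and no marker was near 0. Markers of endothelial cells ran the other way. The 3 markers Pecam1, Cdh5 and Kdr had negative differences from Cre-/mdx in both knockouts. Their median was -0.56 in LysM-MRcko/mdx, where none was called (beside 0.142% of all clusters called lower). In MCK-MRcko/mdx the median was -1.07, and 1 of 3, Cdh5, was called lower (-1.13, beside 0.0944% of all clusters). The summed log2 signals of the 3 markers ran over 34.61 to 36.04 in LysM-MRcko/mdx, 32.46 to 37.18 in MCK-MRcko/mdx and 36.42 to 38.10 in Cre-/mdx mice. None of the measured adipocyte (2 of 3) and erythroid (1 of 3) markers was called against Cre-/mdx, where few of all clusters were (the shares above). The adipocyte markers Adipoq and Plin1 differed from Cre-/mdx by 0.95 and 0.70 in LysM-MRcko/mdx. In MCK-MRcko/mdx they differed by -0.49 and -0.50, so they ran opposite ways in the 2 knockouts. The part of the macrophage, endothelial and adipocyte differences in the mitochondrial signals below was not tested. In whole muscle, fewer cells of a type and less RNA per cell cannot be told apart.

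The single tRNA that could be named, mt-Tk, was lower in myeloid knockout muscle. This gene encodes the tRNA that carries lysine to mitochondrial ribosomes, and it lies between COX2 and ATP8 on the genome. Its log2 signal was 16.46, 17.28 and 15.11 in LysM-MRcko/mdx mice, 17.53, 16.67 and 17.96 in MCK-MRcko/mdx mice, and 17.93, 18.54 and 18.16 in Cre-/mdx mice. Every LysM-MRcko/mdx value lay below every Cre-/mdx value, whereas 1 MCK-MRcko/mdx mouse reached the control range. The LysM-MRcko/mdx mean of 16.28 ± 1.10 stood against 18.21 ± 0.31 in Cre-/mdx (SD, n = 3 each), a difference of -1.93 (SE 0.57, 95% interval -3.28 to -0.57), or 3.80-fold lower. This passed the call, but the limma p-value adjusted over all clusters by the Benjamini-Hochberg method was 0.78. The exact two-sided permutation p was 0.10, the smallest that 3 mice against 3 can give. Across all clusters of the array, 0.142% were called lower in LysM-MRcko/mdx.

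MCK-MRcko/mdx mice took an intermediate place for mt-Tk. Their mean of 17.39 ± 0.66 differed from that of Cre-/mdx by -0.82 (95% interval -2.18 to 0.53, limma adjusted p = 0.85). LysM-MRcko/mdx in turn differed from MCK-MRcko/mdx by -1.10 (95% interval -2.46 to 0.25, limma adjusted p = 0.74). Neither difference passed the call, and of the 3 groups LysM-MRcko/mdx and Cre-/mdx alone differed beyond it. Without LysM-MRcko/mdx replicate 2 the difference between the knockouts became -1.60 and passed. The LysM-MRcko/mdx mice spread most, over more than 2 log2 units. The lowest of them, replicate 3, was female, while the mouse with the highest mt-Tk signal, Cre-/mdx replicate 2, was female as well. With sex as a covariate the LysM-MRcko/mdx difference stayed at -1.93 and was called. The difference from Cre-/mdx was called in all 9 fits that left out 1 mouse, between -2.43 and -1.34.

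**Figure D1:**
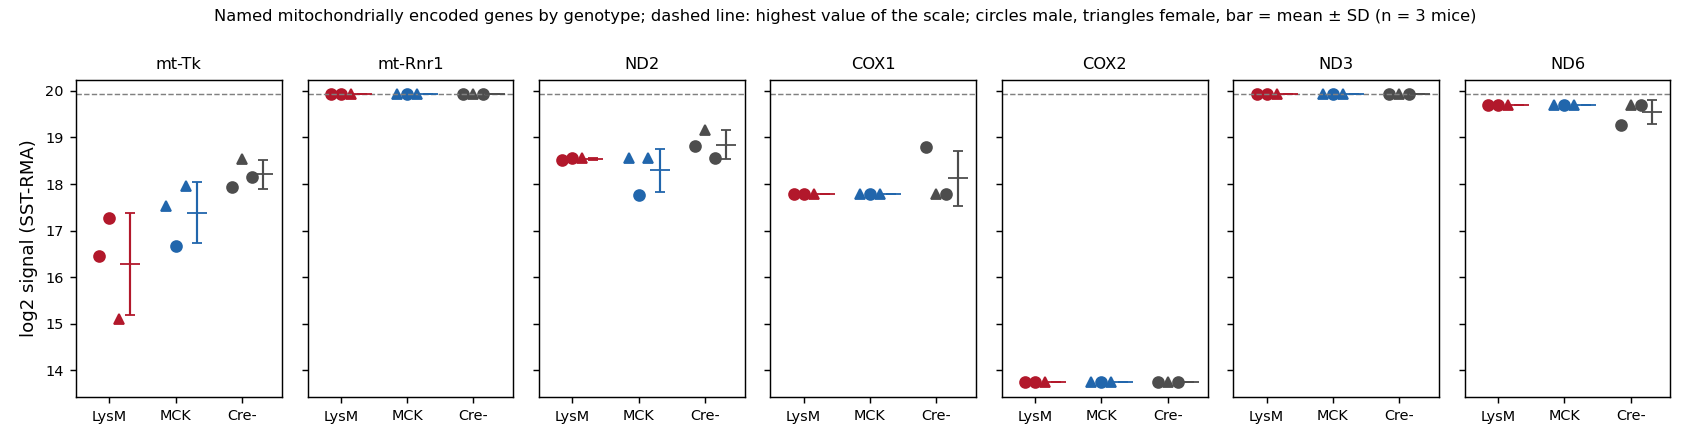
Log2 SST-RMA signal (vertical axis) of the 7 named mitochondrially encoded genes in the 2 knockouts and in Cre-/mdx mice, with a point per mouse (circles male, triangles female), bars for mean ± SD (n = 3) and a dashed line at the highest value of the scale, 19.93. For mt-Tk the 3 LysM-MRcko/mdx points lie at 17.28 or below and the 3 Cre-/mdx points at 17.93 or above, while mt-Rnr1, ND3 and COX2 each show 1 value in all 9 arrays.

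The 12S rRNA of the small ribosomal subunit, mt-Rnr1, could not be compared. Its log2 signal was 19.93 in 9 of 9 arrays, which is the highest value in every array. ND3, a subunit of respiratory complex I, was likewise at 19.93 in 9 of 9 arrays, as were all 4 clusters with several symbols. A difference of 0 at the top of the scale is a limit of the measurement and shows neither a change nor its absence.

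Such saturation was common among mitochondrial clusters. Of the 30, 7 (23.3%) stood at 19.93 in all 9 arrays, against 149 of 65672 clusters in all (0.227%), and 10 (33.3%) were within 1 log2 unit of the top in every array, against 241 (0.367%). With the margin at 0.5 the count was 9, and with the margin at 2 it was 11. The nuclear pseudogene Gm10925 on chromosome 1, for which RefSeq lists mt-Atp6 as a synonym, also read 19.93 in all 9 arrays. It was left out of the mitochondrial clusters.

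A repeated value below the top was a further feature of these genes. COX2, which encodes the copper-carrying subunit of cytochrome c oxidase, read 13.74 in 9 of 9 arrays. COX1, the catalytic subunit of the same enzyme, read 17.78 in 8 arrays and 18.80 in Cre-/mdx replicate 1. ND6, a complex I subunit encoded on the strand opposite to most other genes, read 19.70 in 8 arrays and 19.26 in the same Cre-/mdx mouse. All told, 8 of 30 mitochondrial clusters (26.7%) had 1 identical value, to 2 decimals, in all 9 arrays, against 1282 of all clusters (1.95%). These counts include the clusters at the top described above, 7 of the 8 and 149 of the 1282. COX2 was thus the only mitochondrial cluster with 1 identical value below the top. The source of these repeated values was not tested. They leave COX2 with no measured spread. COX1 and ND6 varied in Cre-/mdx alone (SD 0.59 and 0.25), through Cre-/mdx replicate 1.

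ND2, a core subunit of complex I, was the protein gene with the widest range over the 9 arrays (1.41, beside 1.02 for COX1). Its log2 signal was 18.52, 18.56 and 18.56 in LysM-MRcko/mdx mice, 18.56, 17.76 and 18.56 in MCK-MRcko/mdx mice, and 18.81, 19.17 and 18.56 in Cre-/mdx mice. The value 18.56 was shared by 5 of 9 arrays and occurred in every group, so the groups touched. LysM-MRcko/mdx differed from Cre-/mdx by -0.30 (limma adjusted p = 0.83), and MCK-MRcko/mdx differed from Cre-/mdx by -0.55 (SE 0.24, limma adjusted p = 0.84). None of the 5 protein genes was called in any of the 3 comparisons. Their median difference was 0 in each, a value that the repeated readings of ND3, COX2 and ND6 nearly fixed. With the members at the ceiling left out, the median difference from Cre-/mdx was -0.30 in LysM-MRcko/mdx and -0.34 in MCK-MRcko/mdx, beside 0 over all clusters. That left ND2, COX1 and COX2, so these medians are the ND2 difference in LysM-MRcko/mdx and the COX1 difference in MCK-MRcko/mdx. The COX1 difference rested on Cre-/mdx replicate 1 alone, at 18.80 beside 17.78 in the 8 other arrays.

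The 19 clusters without a symbol held most of the variation that remained. Of these, 3 were within 1 log2 unit of the top in all arrays. In MCK-MRcko/mdx against Cre-/mdx, 7 of the 19 were called lower, beside 0.0786% of all clusters without a symbol, and none higher. For LysM-MRcko/mdx the count was 2 of the 19, beside 0.169%. The 7 are given letters here, a to g, in order of their difference in MCK-MRcko/mdx, the largest first. Which transcripts they detect is not given in the sources used here, so they are described by their values alone.

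The least variable of them, cluster f (TC0M00000029), was lower in both knockouts. It had log2 signals of 8.41, 8.36 and 7.58 in LysM-MRcko/mdx mice, 8.74, 7.96 and 7.53 in MCK-MRcko/mdx mice, and 10.41, 9.96 and 9.26 in Cre-/mdx mice. All 6 knockout values lay below all 3 control values, and the knockouts overlapped each other. The difference was -1.76 in LysM-MRcko/mdx (limma adjusted p = 0.78) and -1.80 in MCK-MRcko/mdx (adjusted p = 0.84), with an SE of 0.42 in each. The exact two-sided permutation p was 0.10 in each, again the smallest possible. Both comparisons use the same 3 control mice, so they are not independent. Cluster f was called in both comparisons whichever mouse was left out, over -2.07 to -1.49 in LysM-MRcko/mdx and -2.13 to -1.53 in MCK-MRcko/mdx.

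Cluster c (TC0M00000020) was the other one called in both knockouts. Its log2 signals were 13.05, 14.78 and 11.30 in LysM-MRcko/mdx mice, 12.70, 11.11 and 12.93 in MCK-MRcko/mdx mice, and 16.54, 14.65 and 15.63 in Cre-/mdx mice. MCK-MRcko/mdx lay below Cre-/mdx without overlap, whereas LysM-MRcko/mdx replicate 2 was inside the control range. The difference was -3.36 in MCK-MRcko/mdx (SE 0.97), called whichever mouse was left out (-3.84 to -2.79), and -2.56 in LysM-MRcko/mdx (SE 0.97). The LysM-MRcko/mdx call was lost without LysM-MRcko/mdx replicate 1 (-2.57) or replicate 3 (-1.69) and without Cre-/mdx replicate 1 (-2.10) or replicate 3 (-2.55). It was also lost in a fit of the 2 groups alone, with a plain equal-variance test and with the replicate number as a block, at the same difference.

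The other 5 clusters were called in MCK-MRcko/mdx and not in LysM-MRcko/mdx, although the difference between the knockouts passed for none of them. Cluster a, the most variable, had log2 signals of 12.84, 15.37 and 10.58 in LysM-MRcko/mdx mice, 12.64, 11.09 and 9.97 in MCK-MRcko/mdx mice, and 17.83, 12.73 and 15.21 in Cre-/mdx mice. The controls alone spanned more than 5 log2 units, and the highest MCK-MRcko/mdx value was just below the lowest control. Its difference was -4.02 in MCK-MRcko/mdx and -2.33 in LysM-MRcko/mdx (SE 1.64 in each), and like the 6 others it had a limma adjusted p of 0.84 in MCK-MRcko/mdx.

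Clusters b and e had the same order of control mice as cluster a. Cluster b read 9.59, 11.58 and 8.06 in LysM-MRcko/mdx, 9.31, 8.13 and 7.84 in MCK-MRcko/mdx, and 15.01, 9.36 and 11.77 in Cre-/mdx mice, and differed by -3.62 in MCK-MRcko/mdx (SE 1.5). Cluster e read 10.88, 11.86 and 8.94 in LysM-MRcko/mdx, 10.90, 9.80 and 9.33 in MCK-MRcko/mdx, and 14.70, 11.03 and 12.40 in Cre-/mdx mice, and differed by -2.70 in MCK-MRcko/mdx (SE 1.10). In both, the highest MCK-MRcko/mdx value was just below the lowest control. LysM-MRcko/mdx mice overlapped the controls in both.

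Clusters d and g completed the set. Cluster d read 12.26, 13.26 and 11.23 in LysM-MRcko/mdx, 11.04, 10.67 and 12.00 in MCK-MRcko/mdx, and 16.04, 13.09 and 12.79 in Cre-/mdx mice, and differed by -2.74 in MCK-MRcko/mdx (SE 0.95). Cluster g read 18.02, 17.71 and 17.36 in LysM-MRcko/mdx, 16.69, 15.30 and 17.75 in MCK-MRcko/mdx, and 17.60, 18.45 and 18.07 in Cre-/mdx mice, and differed by -1.46 in MCK-MRcko/mdx (SE 0.59). Cluster g was the one whose MCK-MRcko/mdx values overlapped those of the controls.

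**Figure D2:**
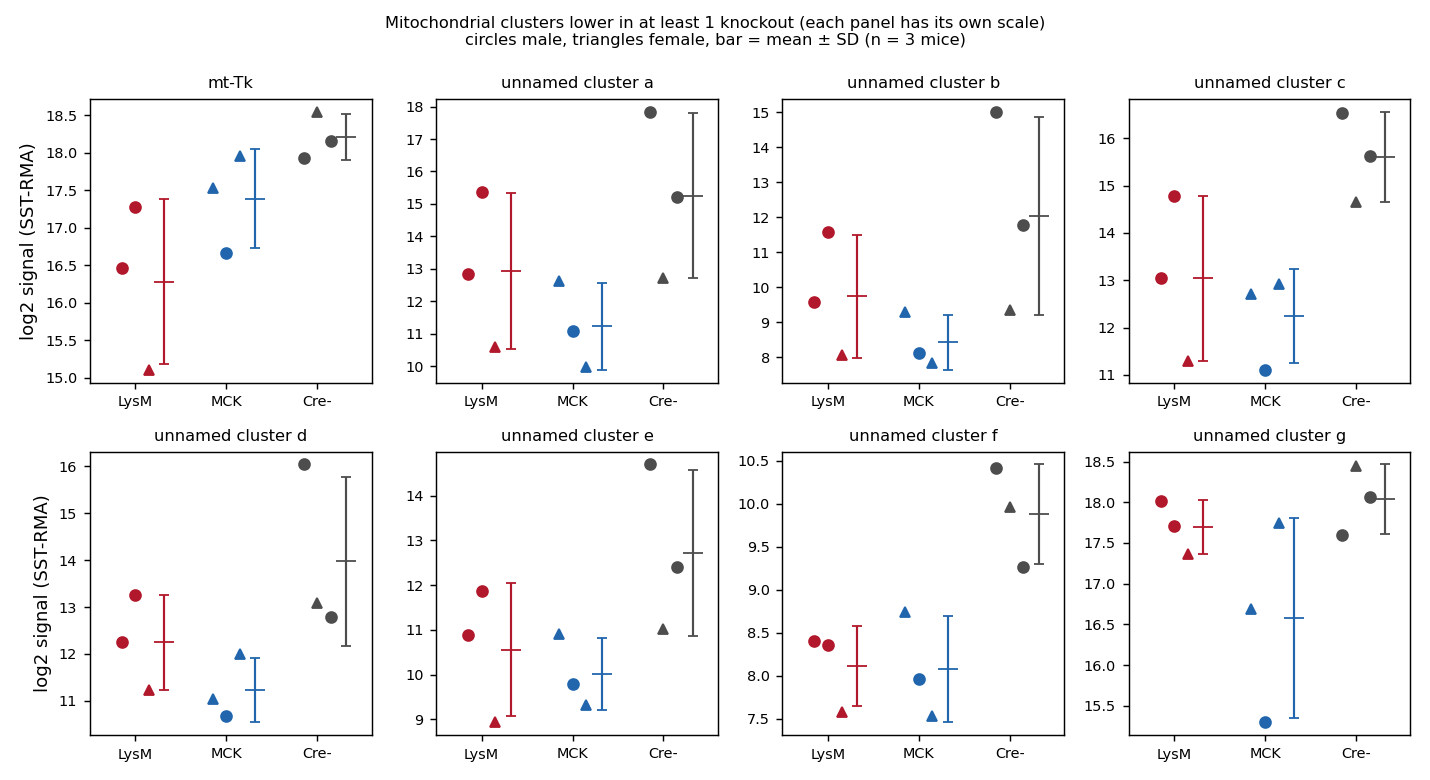
Log2 SST-RMA signal of mt-Tk and of the unnamed mitochondrial clusters a to g in the 2 knockouts and in Cre-/mdx mice, each panel on its own vertical scale, with a point per mouse (circles male, triangles female) and bars for mean ± SD (n = 3). Cre-/mdx replicate 1 is the highest point in 6 of the 7 unnamed clusters, for example 17.83 in cluster a and 10.41 in cluster f.

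One control mouse stood highest in most of these clusters. Cre-/mdx replicate 1 was the highest of the 9 arrays in 6 of the 7 clusters and Cre-/mdx replicate 2 in the other one, while the lowest array was a MCK-MRcko/mdx mouse in 6 of 7. Averaged over the 7 clusters, the log2 signal was 12.15, 13.27 and 10.72 in LysM-MRcko/mdx, 11.72, 10.58 and 11.05 in MCK-MRcko/mdx, and 15.45, 12.75 and 13.59 in Cre-/mdx mice. The MCK-MRcko/mdx averages did not overlap with those of the controls, and 1 LysM-MRcko/mdx average did. The 7 clusters were picked as called lower in MCK-MRcko/mdx, so this order of the groups follows in part from the choice. It is no separate test of the groups. The array median of Cre-/mdx replicate 1 was 4.73, inside the range of the other arrays. Its summed macrophage marker signal, 109, was the lowest of the 9.

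The calls of 5 of the 7 clusters depended on single mice. Without Cre-/mdx replicate 1 the MCK-MRcko/mdx difference was -2.74 for cluster a, -2.14 for b and -1.71 for e, and none of these was called. These clusters also failed the call when Cre-/mdx replicate 3 was dropped (-4.05, -3.76 and -2.86), when MCK-MRcko/mdx replicate 2 (-3.95, -3.47 and -2.60) or replicate 3 (-3.39, -3.33 and -2.36) was dropped and, through the shared estimate of the spread, when LysM-MRcko/mdx replicate 1 was dropped (-4.02, -3.62 and -2.70, as with all mice). Cluster b failed it when MCK-MRcko/mdx replicate 1 was dropped (-4.06). Cluster d failed it with MCK-MRcko/mdx replicate 1 (-2.64) or replicate 2 (-2.45) dropped. Cluster g failed it with MCK-MRcko/mdx replicate 1 (-1.52) or replicate 2 (-0.82) dropped, with Cre-/mdx replicate 2 (-1.26) or replicate 3 (-1.45) dropped, and, at an unaltered -1.46, with any 1 of the LysM-MRcko/mdx mice dropped. The direction stayed negative in every one of these fits. MCK-MRcko/mdx holds more females than the other groups, and with sex as a covariate the differences of clusters a, b and e were -3.23, -2.94 and -2.19 and no longer passed, while c, d, f and g did.

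Most of the 7 clusters varied together across mice. Cluster g departed from the others among the controls. Cre-/mdx replicate 1 was its lowest control, at 17.60, but the highest array in the 6 other clusters. Over the 9 arrays the 21 pairs had Pearson correlations of 0.298 to 0.982 with a median of 0.845. After each group's mean was taken away the range was -0.25 to 0.982 with a median of 0.694. Many pairs, but not all, thus also varied together among mice of 1 genotype. Correlations with mt-Tk ran over 0.369 to 0.705. All these points share their arrays and their normalization, and the clusters were picked because they were lower in MCK-MRcko/mdx, so the values describe these arrays only.

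Counted over the 30 mitochondrial clusters, 7 were called lower and none higher in MCK-MRcko/mdx relative to Cre-/mdx (23.3%), where 0.0944% of all clusters were called lower. For LysM-MRcko/mdx 3 were called lower and none higher (10%), where 0.142% of all clusters were. The 3 were mt-Tk and clusters c and f, and 2 of the 8 clusters called in either knockout were called in both. An unadjusted p under 0.05 was found for 8 of 30 clusters in MCK-MRcko/mdx, beside 5.54% of all clusters, and for 5 of 30 in LysM-MRcko/mdx, beside 6.2%. No adjusted p was under 0.05 for any cluster of the array in limma, and the smallest among the mitochondrial clusters was 0.84 in MCK-MRcko/mdx and 0.785 in LysM-MRcko/mdx. The clusters can share precursors and in part moved together, so these counts are not counts of separate events. The shares over all clusters were also not taken at like signal. None of the 30 had a mean below the median cluster mean, and 19 lay above the 99th percentile of cluster means.

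The direction was mostly negative. In LysM-MRcko/mdx 18 clusters had a negative difference from Cre-/mdx, 2 a positive one and 10 exactly 0, and in MCK-MRcko/mdx the counts were 19, 3 and 8. The median difference of the 30 was -0.28 in LysM-MRcko/mdx and -0.34 in MCK-MRcko/mdx, with 0 over all clusters in both. Every mouse lay below every control in 3 of 30 clusters in LysM-MRcko/mdx and in 8 of 30 in MCK-MRcko/mdx, beside 4.44% and 2.81% of all clusters. One unnamed cluster below 2-fold was among them in both knockouts, at -0.85 in LysM-MRcko/mdx and -0.80 in MCK-MRcko/mdx (SE 0.22 in each). Its values were 7.81, 8.16 and 7.65 in LysM-MRcko/mdx, 7.78, 7.83 and 8.16 in MCK-MRcko/mdx, and 9.12, 8.65 and 8.40 in Cre-/mdx mice.

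**Figure D3:**
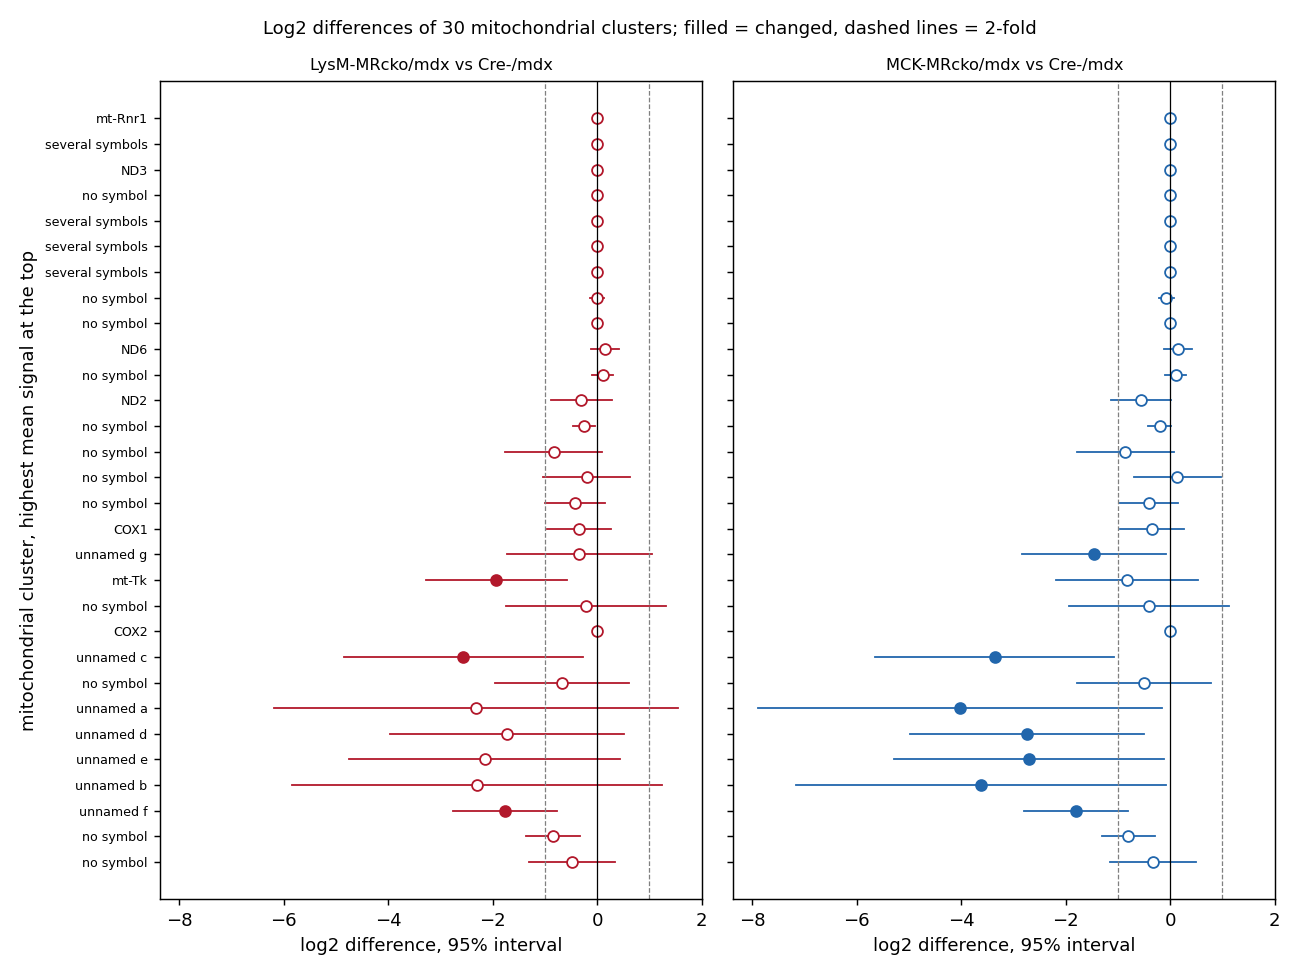
Log2 difference (horizontal axis, same scale in both panels) of each of the 30 mitochondrial clusters for LysM-MRcko/mdx (left) and MCK-MRcko/mdx (right), each minus Cre-/mdx, with 95% intervals from limma and dashed lines at 2-fold. Filled points mark the 3 clusters called on the left and the 7 called on the right, all negative, and both panels rest on the same 3 control mice.

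Between the knockouts, no mitochondrial cluster was called. The median difference of LysM-MRcko/mdx from MCK-MRcko/mdx was 0 over the 30 clusters, with 7 negative, 12 positive and 11 exactly 0. Over all clusters 0.429% were called in this comparison. None of the 30 had an unadjusted p under 0.05 in limma, beside 7.12% of all clusters, and the smallest adjusted p was 0.744. The 95% intervals were wide for the variable clusters, as for mt-Tk above and for cluster a (-2.17 to 5.56), and there they held a 2-fold difference. They were narrower for others, as for ND2 (-0.32 to 0.83), where they held no 2-fold difference. ND2 read 18.56 in 5 of 9 arrays, and the part of these repeated readings in the narrow interval was not tested.

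The called clusters lay below the top of the scale, but not every cluster below it varied. COX2 read 13.74 in all 9 arrays, and COX1 read 17.78 in 8 of 9. The 8 called in at least 1 knockout had means over the 9 arrays below 18, and each ranged over more than 2 log2 units. A call requires a 2-fold difference, so part of this range comes with the choice. The 12 unnamed clusters never called ranged over 0 to 2.39. Signals of different clusters come from different probes, so their levels were not compared as amounts of RNA.

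**Figure D4:**
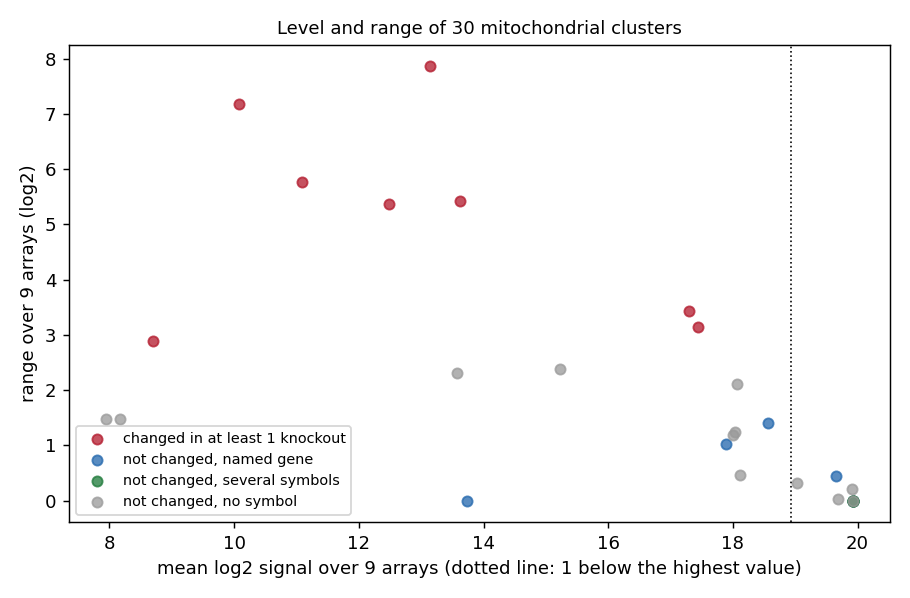
Range over the 9 arrays (highest minus lowest log2 signal, vertical axis) against the mean log2 signal (horizontal axis) of the 30 mitochondrial clusters, with a dotted line 1 unit below the highest value of 19.93. The 8 clusters called in at least 1 knockout (red) all lie left of the line, and 7 clusters overlie one another at 19.93 with a range of 0.

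The nuclear genes that transcribe and process mitochondrial RNA mostly had small negative differences. Of 35 listed genes, 32 were measured. In LysM-MRcko/mdx 1 of 32 was called lower than in Cre-/mdx, beside 0.142% of all clusters, and none higher. There 26 of 32 differences were negative with a median of -0.11, and 5 of 32 had an unadjusted p under 0.05, beside 6.2% of all clusters. In MCK-MRcko/mdx 1 of 32 was called lower, beside 0.0944% of all clusters, and none higher, with 24 negative, a median of -0.05 and 2 at an unadjusted p under 0.05, beside 5.54%. The gene called was in both cases Ppargc1a, the coactivator PGC-1alpha that promotes mitochondrial biogenesis. Ppargc1a had log2 signals of 9.56, 10.28 and 9.76 in LysM-MRcko/mdx, 10.10, 10.13 and 9.61 in MCK-MRcko/mdx, and 12.01, 11.12 and 10.13 in Cre-/mdx mice. Cre-/mdx replicate 1 was again the highest, and 1 mouse of each knockout reached the lowest control. Without that control mouse the Ppargc1a differences were -0.76 in LysM-MRcko/mdx and -0.68 in MCK-MRcko/mdx, against -1.22 and -1.14 with all mice, and neither was called. The LysM-MRcko/mdx call was also lost without LysM-MRcko/mdx replicate 1 (-1.07) or replicate 3 (-1.17), without Cre-/mdx replicate 2 (-1.20), and in the two-group and plain fits. The MCK-MRcko/mdx call was lost in 8 of 9 fits that left out 1 mouse (-1.23 to -0.68) and held with Cre-/mdx replicate 3 left out. It was also lost with sex as a covariate (-1.10), with array weights (-1.03) and in the two-group and plain fits. The next largest difference in LysM-MRcko/mdx was that of Tfb2m, a transcription factor of the organelle, at -0.70 (SE 0.27), and in MCK-MRcko/mdx that of Fastk, at -0.42, both below 2-fold.

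The nuclear genes that charge and modify mitochondrial tRNAs mostly had small negative differences as well. Of 38 listed, 36 were measured, with a median difference from Cre-/mdx of -0.03 in each knockout. Of the 36 differences, 25 were negative in each knockout. An unadjusted limma p under 0.05 was found for 4 in LysM-MRcko/mdx, beside 6.2% of all clusters. In MCK-MRcko/mdx it was found for 0, beside 5.54%. In LysM-MRcko/mdx 1 of 36 was called lower, beside 0.142% of all clusters, and none higher, and in MCK-MRcko/mdx none was called, beside 0.0944% lower and 0.227% higher over all clusters. The one called was Gatc, a subunit of the amidotransferase that completes the charging of the mitochondrial glutamine tRNA. Gatc had log2 signals of 12.62, 13.69 and 12.87 in LysM-MRcko/mdx, 13.68, 13.88 and 13.63 in MCK-MRcko/mdx, and 14.29, 13.88 and 14.03 in Cre-/mdx mice. Its difference of -1.01 in LysM-MRcko/mdx (SE 0.27, limma adjusted p = 0.78) sat at the 2-fold limit, and it was below that limit without LysM-MRcko/mdx replicate 1 (-0.79), LysM-MRcko/mdx replicate 3 (-0.91) or Cre-/mdx replicate 1 (-0.90).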

How the data were processed

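The authors extracted RNA from frozen quadriceps with TRIzol, treated it with DNase, cleaned it on RNeasy columns, labelled it with the WT PLUS kit and hybridised 1 Clariom D array per mouse. The deposited values are log2 signals per transcript cluster, normalized by the authors in Affymetrix Expression Console (SST-RMA at gene level). Their comparisons used Transcriptome Analysis Console. Versions and the genome build are not given in the sources used here, so no coordinates are printed. Of 65672 clusters, 31104 carried 1 gene symbol in the platform's probe table, 1497 several and 33071 none, and 1159 older symbols were updated through RefSeq (GRCm38.p6). Depth has no meaning for arrays, and their number, 3 per group, limits the precision.

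A limma 3.58.1 model (R 4.3.3) with 1 mean per group and no covariates was fitted to all clusters of the 9 arrays, and p-values were adjusted over all of them by the Benjamini-Hochberg method. The limma p-values weigh each difference against an estimate of the spread between mice, taken in part from other clusters. For clusters with the same value in all 9 arrays, that estimate comes from other clusters alone. The exact permutation tests are two-sided. Named genes are those of the mitochondrial genome and, from the nuclear and marker lists, members that were called or had the 2 largest differences in a comparison. The endothelial markers are named in full. The members and lists were chosen with earlier results of these data known. Alternatives were a two-group fit, a plain equal-variance test per cluster, array weights, quantile normalization, a replicate block, median centring, sex as a covariate, trended robust eBayes, a filter at the median signal, members at the ceiling left out, and each array left out in turn. Levels by strand and position were not compared, since 1 tRNA was named. The code was tested on simulated data with 200 changed clusters. Sequences of these genes were not used here.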

Additional observations from a re-analysis of the deposited data

How the results depend on the processing

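The called differences of mt-Tk and clusters a to g stayed negative under every alternative run. Some clusters not called changed sign or moved off 0: over the 30, the negative differences numbered 18 in LysM-MRcko/mdx against Cre-/mdx (15 without Cre-/mdx replicate 2), 19 in MCK-MRcko/mdx against Cre-/mdx (17 without Cre-/mdx replicate 2, 22 with quantile normalization) and 7 between the knockouts (11 without LysM-MRcko/mdx replicate 2, 18 with median centring). The count of mitochondrial clusters called in MCK-MRcko/mdx against Cre-/mdx was 7, but 4 in the two-group fit, 2 with a plain equal-variance test per cluster, 4 with sex as a covariate, 4 with array weights and 2 to 6 when 1 array was left out (2 with MCK-MRcko/mdx replicate 2 out, 3 with LysM-MRcko/mdx replicate 1 out, and 4 with replicate 1 or 3 of MCK-MRcko/mdx or of Cre-/mdx out). With quantile normalization this count rose to 8. In LysM-MRcko/mdx against Cre-/mdx the count was 3, and 2 in the two-group fit, 2 with the plain test and 2 to 5 with 1 array left out (5 without Cre-/mdx replicate 2). Between the knockouts it was 0, but 1 with quantile normalization, 1 with array weights and 0 to 1 with 1 array left out (1 without LysM-MRcko/mdx replicate 2 or MCK-MRcko/mdx replicate 3), and the count of named genes was 0 to 1 (1, mt-Tk, without LysM-MRcko/mdx replicate 2). Over all clusters, 247 were called in LysM-MRcko/mdx against Cre-/mdx (143 with the plain test, 135 to 560 with 1 array left out), 211 in MCK-MRcko/mdx against Cre-/mdx (114 and 155 to 555) and 282 between the knockouts (223 and 234 to 495). The median of the protein genes in MCK-MRcko/mdx against Cre-/mdx was 0, but -0.16 with quantile normalization and -0.34 with members at the ceiling left out. The value of -0.34 is the COX1 difference and rests on Cre-/mdx replicate 1. The call of mt-Tk in LysM-MRcko/mdx held under every alternative. A second cluster per gene could not be tried, since no named gene had one. The count over the 30 clusters and the values of the unnamed clusters are alternatives chosen after seeing the data. Apart from the members left out at the ceiling, the cause of these changes was not tested.

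Same-numbered mice correlated at -0.23 to 0.16 in their deviations from the group means, and 1 of 9 correlated best with its own number. Cluster f, however, fell from replicate 1 to replicate 3 in all 3 groups. With the number as a block its unadjusted limma p against Cre-/mdx was 5.4e-05 in LysM-MRcko/mdx (0.0041 without the block). In MCK-MRcko/mdx it was 4.9e-05 (0.0037 without the block). Whether the numbers pair mice was not tested further. With the number as a block, 4 clusters were called in MCK-MRcko/mdx against Cre-/mdx and 2 in LysM-MRcko/mdx against Cre-/mdx.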
